A study of Mus musculus with 16 samples.

Results

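The 8 genes described are mouse genes of cholesterol synthesis and of the sensing of sterols. They were taken by symbol from the deposited expression table, which held all 8 among its 23970 gene symbols. The enzymes were Hmgcs1, Idi1, Fdps, Fdft1 and Sqle, and the sensing genes were Srebf2, Insig1 and Insig2. Genes were tested if their FPKM averaged 0.5 or more in the 16 libraries, which held for 7 of the 8 and for 11256 symbols in all, and Sqle lay below this level. FPKM (fragments per kilobase of a transcript, relative to the mapped fragments of the library) are scaled for length, so levels can be compared between genes.

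RNA sequencing was performed on quadriceps muscle of wild-type male C57BL/6NTac mice aged 16 weeks, in 4 groups of 4 biological replicates. CON-pre mice had the control diet (CON) and HFD-pre mice the high-fat diet (HFD), and both were sampled without the exercise test, after the same treadmill acclimatization and fasting as the others. CON-post and HFD-post mice had the same diets and were sampled 3 h after a treadmill test run to exhaustion. The mice sampled before and after exercise were different mice, so no comparison was made within a mouse.

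Cholesterol is made from acetyl-CoA by the mevalonate pathway. HMG-CoA and mevalonate are formed at its start, the isoprenoid intermediates isopentenyl and farnesyl diphosphate are made next, and squalene is the intermediate from which the sterols are formed. When sterols in the endoplasmic reticulum are low, the transcription factor SREBP-2 (encoded by Srebf2) is escorted by SCAP to the Golgi, cut by proteases and released to the nucleus, where it activates the genes of this pathway. When sterols are plentiful, the INSIG proteins hold SCAP and SREBP-2 in the endoplasmic reticulum, and Insig1 is itself a target of SREBP-2, which makes it a feedback gene. Liver is the best known site of this regulation, but cells of most tissues, muscle included, can make cholesterol.

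The promoters of 3 members are shown because Srebf2 and Insig1 are the sensing genes whose values in HFD-pre lay below those in CON-pre, and because the promoter of Hmgcs1 held a sterol regulatory element, the type of site that SREBP binds. Each sequence is from RefSeq (GRCm38.p6), on the plus strand, and runs from 250 bases before to 50 bases after the annotated start of the gene. The windows are chr15:82147019-82147318 for Srebf2, chr5:28071162-28071461 for Insig1 and chr13:119690101-119690400 for Hmgcs1. Capitals mark the sterol regulatory element, searched as TCACNCCAC, the NF-Y site, searched as CCAAT, and the E-box, searched as CACGTG, on either strand, with no overlap between the marked sites.
Srebf2: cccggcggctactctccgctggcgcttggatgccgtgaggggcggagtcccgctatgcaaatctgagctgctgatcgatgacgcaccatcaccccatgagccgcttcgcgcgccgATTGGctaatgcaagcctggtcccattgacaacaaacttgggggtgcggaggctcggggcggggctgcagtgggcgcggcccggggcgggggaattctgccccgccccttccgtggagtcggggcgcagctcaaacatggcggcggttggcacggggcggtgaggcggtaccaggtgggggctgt
Insig1: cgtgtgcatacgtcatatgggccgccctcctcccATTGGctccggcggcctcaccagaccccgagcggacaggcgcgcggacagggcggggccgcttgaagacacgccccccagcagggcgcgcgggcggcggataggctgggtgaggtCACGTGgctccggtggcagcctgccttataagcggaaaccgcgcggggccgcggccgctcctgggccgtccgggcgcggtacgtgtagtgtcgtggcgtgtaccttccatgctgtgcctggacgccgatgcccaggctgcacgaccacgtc
Hmgcs1: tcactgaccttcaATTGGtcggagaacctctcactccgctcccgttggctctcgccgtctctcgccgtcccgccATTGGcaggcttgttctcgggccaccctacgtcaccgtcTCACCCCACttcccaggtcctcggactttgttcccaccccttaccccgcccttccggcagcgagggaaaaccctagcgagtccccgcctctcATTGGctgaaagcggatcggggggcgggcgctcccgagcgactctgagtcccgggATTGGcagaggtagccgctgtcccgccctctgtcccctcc
The promoter table held 7 windows for 5 of the 8 members, namely 3 starts of Insig2 and 1 each of Insig1, Idi1, Hmgcs1 and Srebf2. Fdft1, Fdps and Sqle were not matched. The sterol regulatory element letters were found in 1 of the 7 windows, in Hmgcs1 with their first base at -137 from the start, and in 1.24% of all 32851 promoters in the table. Only exact matches were counted, and the Srebf2 window holds tcaccccat, which differs from the searched letters in its last base. NF-Y letters were found in 5 of the 7 windows and in 37.4% of all promoters. The E-box was found in 1 of the 7, in Insig1 at -101, and in 7.15% of all promoters. The Sp1 letters GGGCGG, which are not in capitals, were found in 6 of the 7 windows and in 35.7% of all promoters. A match describes the letters in the window and does not show that a factor binds there.

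The sum of FPKM ranged from 283575 to 329282 between libraries, the depth relative to CON-pre replicate 1 from 0.706 to 1.12, and the correlation of log2 values between libraries from 0.966 to 0.984. By group, the sum was 305490 to 327559 in CON-pre and 294867 to 303652 in HFD-pre, without overlap. It was 298638 to 329282 in CON-post and 283575 to 314764 in HFD-post. The median relative depth was 0.997 in CON-pre and 0.819 in HFD-pre, and the depths overlapped. The tissue label was checked against muscle fibre markers. All 8 markers, among them Acta1 and Ckm, were present in every library, with a summed level of 56911 to 84513 FPKM. In bulk tissue, a lower share of a cell type that expresses a gene and less RNA of that gene per cell cannot be told apart.

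The members covered a wide range of levels. Insig2, one of the proteins that retain SCAP, was the most abundant, with 19.7 ± 1.55 FPKM (SD, n = 16), above 84.1% of the genes tested. Fdft1, the squalene synthase that commits farnesyl diphosphate to sterols, followed at 14.9 ± 1.70 FPKM, and Hmgcs1, the cytosolic HMG-CoA synthase, at 8.09 ± 0.886 FPKM. Insig1 lay at 3.90 ± 0.857 FPKM. In each of the 16 libraries these genes had the same order, with Insig2 above Fdft1, Fdft1 above Hmgcs1, Hmgcs1 above Insig1, and Insig1 above Idi1.
The lower members were Idi1 (isopentenyl diphosphate isomerase) at 2.21 ± 0.292 FPKM, Srebf2 at 2.12 ± 0.314 FPKM and Fdps (farnesyl diphosphate synthase) at 1.83 ± 0.539 FPKM. These neighbours were not separated by their spread, since Idi1 was above Srebf2 in 9 of 16 libraries, and Srebf2 above Fdps in 9 of 16. Sqle, the squalene epoxidase, was the lowest at 0.199 ± 0.0987 FPKM and lay below Fdps in all 16 libraries. Transcripts of successive enzymes were present at unequal levels, with Fdft1 104 ± 88.8 times as high as Sqle (SD, n = 16; median of the libraries 77.7).

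**Figure D1:**
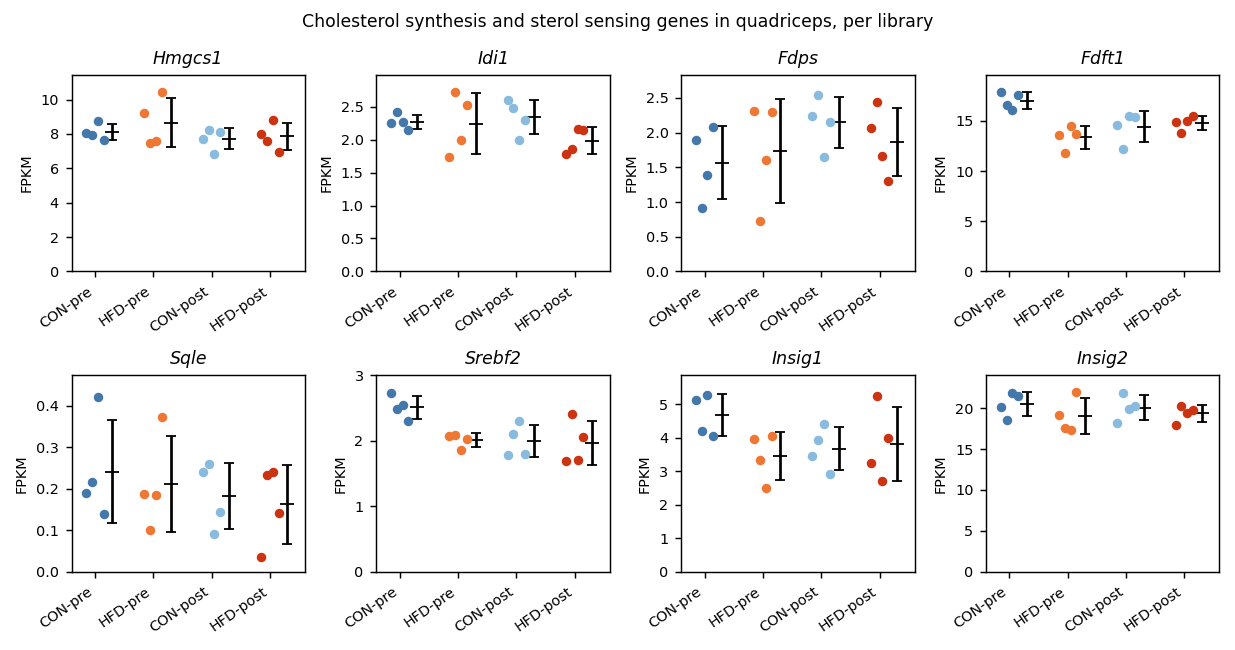
FPKM of the 8 members in each library (points) of the CON groups and the HFD groups before and after exercise, with the mean and SD of the 4 libraries as a bar; each vertical axis starts at 0. The 4 CON-pre points of Fdft1, between 16.1 and 17.8 FPKM, lie above all 12 other points, and those of Hmgcs1, Idi1 and Insig2 overlap with each other group.

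The effect of the diet before exercise was examined by comparing HFD-pre with CON-pre. Fdft1, Srebf2 and Insig1 had lower values in each HFD-pre library than in any CON-pre library, by 21.4, 19.8 and 25.9% of the mean FPKM, whereas Hmgcs1, Idi1, Fdps, Sqle and Insig2 overlapped between the groups. No member reached an adjusted p under 0.05 in limma (0 of 7 tested, against 0.346% of all genes tested), and 3 of 7 had an unadjusted p under 0.05, against 8.25% of all genes. Of all genes tested, 3.94% were lower in HFD-pre without overlap.
Fdft1 was 17.8, 16.6, 16.1 and 17.6 FPKM in CON-pre replicates 1 to 4 and 13.6, 11.8, 14.5 and 13.6 FPKM in HFD-pre replicates 1 to 4. All 4 HFD-pre values lay below the lowest CON-pre value. The log2 fold change on the log2(FPKM + 0.5) scale was -0.34 (standard error 0.08, 95% confidence interval -0.52 to -0.16, limma adjusted p = 0.127).
Srebf2 was 2.73, 2.48, 2.54 and 2.30 FPKM in CON-pre and 2.08, 2.09, 1.86 and 2.02 FPKM in HFD-pre. The groups did not overlap. The log2 fold change was -0.26 (standard error 0.10, 95% confidence interval -0.48 to -0.04, limma adjusted p = 0.489). Its unadjusted p was under 0.05 with all libraries, and was over 0.05 in 2 of 30 alternatives (up to 0.0672, without CON-pre replicate 1).
Insig1 was 5.14, 4.20, 5.29 and 4.06 FPKM in CON-pre and 3.98, 3.32, 2.50 and 4.06 FPKM in HFD-pre. The lowest CON-pre value (4.061 FPKM) and the highest HFD-pre value (4.056 FPKM) were nearly equal, so the separation of the groups rested on a small margin. The log2 fold change was -0.40 (standard error 0.17, 95% confidence interval -0.77 to -0.02, limma adjusted p = 0.564). Its unadjusted p was likewise under 0.05 with all libraries, and was over 0.05 in 5 of 30 alternatives (up to 0.146, without HFD-pre replicate 3).
For each of these 3 genes the exact two-sided permutation test gave p = 0.0286, the smallest that 4 libraries against 4 allow. Of 32 such tests (8 members in 4 comparisons) 5 gave this p, which is not adjusted for the number of tests. These tests and the statements on overlap used FPKM as deposited, and the sums of FPKM also separated HFD-pre from CON-pre. Overlap was not examined under other scalings.

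The remaining members overlapped between HFD-pre and CON-pre. The 95% confidence interval of the log2 fold change in HFD-pre was -0.14 to 0.30 for Hmgcs1 (estimate 0.08), -0.27 to 0.21 for Idi1 (-0.03), and -0.28 to 0.07 for Insig2 (-0.11). Fdps, which ranged from 0.725 to 2.31 FPKM within HFD-pre alone, had an interval of -0.45 to 0.60 (estimate 0.08). Its libraries differed more within a group than the group means did. The lowest Fdps value of HFD-pre was that of replicate 2, the library with the lowest relative depth in that group (0.762).
Sqle was 0.190, 0.215, 0.420 and 0.138 FPKM in CON-pre and 0.186, 0.0997, 0.185 and 0.373 FPKM in HFD-pre. When genes of any level were fitted, its log2 fold change was -0.06 (95% confidence interval -0.36 to 0.24, limma adjusted p = 0.986), on a scale that understates the change of so low a gene. The median log2 fold change of the 7 members tested was -0.11, and 5 of them were lower in HFD-pre. Among all genes tested 60.4% were lower, with a median of -0.03.

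Markers of other cell types and of the muscle fibre were summed in the same libraries. The summed level of 8 muscle fibre markers was 74829 to 84513 FPKM in CON-pre and 64838 to 72902 FPKM in HFD-pre, without overlap, and was 66667 to 76289 FPKM in CON-post and 56911 to 71574 FPKM in HFD-post. Of these 8, 7 had a lower estimate in HFD-pre and Myh1 a higher one (0.13, limma adjusted p = 0.866), none had an adjusted p under 0.05, and 2 had an unadjusted p under 0.05. Their part in the lower values of Fdft1, Srebf2 and Insig1 was not tested. The summed level of 9 adipocyte markers, of which Adipoq and Plin1 were above 0 in every library, overlapped between CON-pre (430 to 552 FPKM) and HFD-pre (399 to 489 FPKM), but Fabp4 (mean 329 FPKM over the 16 libraries) made up most of this sum, and 2 of the 9 passed the test in opposite directions. Lep was higher in HFD-pre (log2 fold change 2.34, limma adjusted p = 0.0138) and Cfd lower (-1.97, adjusted p = 0.00440). With an adipocyte marker score as a covariate the log2 fold change in HFD-pre was -0.34 for Fdft1, -0.27 for Srebf2 and -0.40 for Insig1. A marker score was the mean of the gene-centred log2 values of the markers tested. In the adipocyte score the opposite changes of Lep and Cfd offset each other, and the median log2 fold change of its 9 markers was 0.10 in HFD-pre. These fits therefore do not test the part of adipocytes in the members' values. The sums of 6 macrophage markers (63.9 to 111 and 59.2 to 77.3 FPKM), 8 Schwann cell markers (29.7 to 36.7 and 32.3 to 39.3 FPKM) and 5 endothelial markers (42.3 to 54.9 and 46.8 to 58.9 FPKM) also overlapped. In HFD-pre 5 of 6 macrophage markers had a lower estimate, 5 of 6 Schwann cell markers tested a higher one and 5 of 5 endothelial markers a higher one, of which 1, an endothelial marker, had an unadjusted p under 0.05 and none an adjusted p under 0.05. The part of the macrophage and endothelial markers in the members' values was not tested. Of the 5 hepatocyte markers, Cyp7a1 was listed at 0 in 13 of 16 libraries and Ttr and Fgb each in 9, whereas Alb was above 0 in every library (mean 4.00 FPKM) and Apoa1 was at 0 in 1. The sum of the 5 ranged from 0.346 to 18.01 FPKM in CON-pre and from 0.255 to 19.1 FPKM in HFD-pre. The hepatocyte sum was lower in CON-post (0.271 to 0.740 FPKM, median 0.537, against a median of 8.98 in CON-pre), with overlap.

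**Figure D2:**
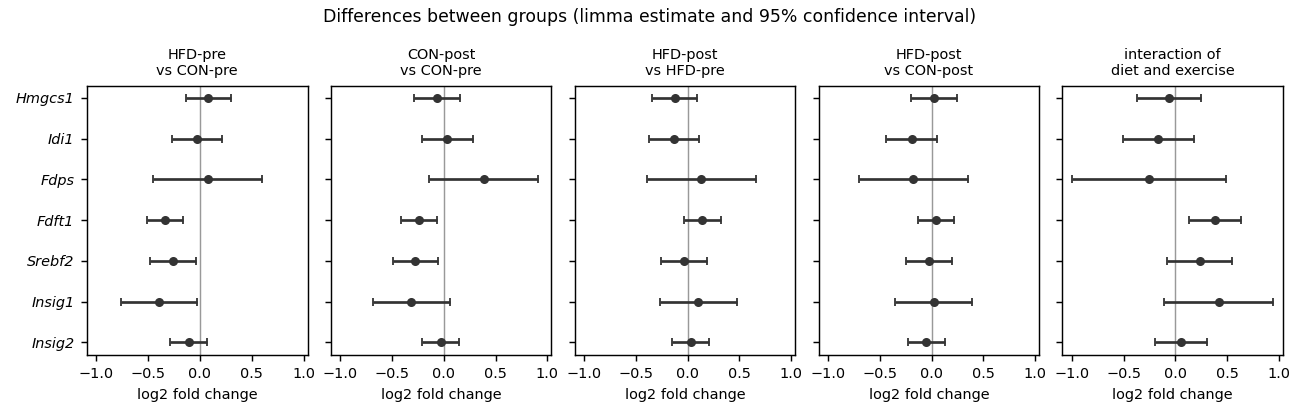
Log2 fold change (horizontal axis, on the log2(FPKM + 0.5) scale) of the 7 members tested in 4 comparisons and the interaction, as the limma estimate (point) with its 95% confidence interval (bar). The intervals of Fdft1 and Srebf2 lie below 0 in HFD-pre vs CON-pre and in CON-post vs CON-pre, that of Insig1 in HFD-pre vs CON-pre, and every interval includes 0 in HFD-post vs HFD-pre and HFD-post vs CON-post.

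The response to exercise on the control diet was examined by comparing CON-post with CON-pre. These comparisons share the CON-pre libraries with the one above and are not independent of it. Fdft1 and Srebf2 again had lower values in each library than in any CON-pre library, by 15.4 and 20.5% of the mean FPKM. None of the 7 members had an adjusted p under 0.05 (limma, against 1.11% of all genes tested), and 2 had an unadjusted p under 0.05, against 11.1% of all genes. Of all genes tested, 2.53% were lower in CON-post without overlap.
Fdft1 was 14.6, 12.2, 15.5 and 15.4 FPKM in CON-post, with replicate 2 lowest. The log2 fold change was -0.24 (standard error 0.08, 95% confidence interval -0.42 to -0.06, limma adjusted p = 0.243). Its unadjusted p was under 0.05 with all libraries, and was 0.0514 without CON-post replicate 2.
Srebf2 was 1.78, 2.10, 2.30 and 1.80 FPKM in CON-post, where the highest value was 2.296 and the lowest CON-pre value 2.300. The log2 fold change was -0.27 (standard error 0.10, 95% confidence interval -0.49 to -0.05, limma adjusted p = 0.3001). Its unadjusted p was over 0.05 in 4 of 30 alternatives, and was 0.0574 with the Schwann cell marker score as a covariate.
Insig1 was 3.45, 3.94, 4.40 and 2.91 FPKM in CON-post and overlapped with CON-pre, with a log2 fold change of -0.31 (95% confidence interval -0.68 to 0.06, limma adjusted p = 0.534). Fdps was 2.25, 2.54, 1.66 and 2.15 FPKM in CON-post and 1.89, 0.914, 1.38 and 2.08 FPKM in CON-pre. Its log2 fold change of 0.38 was the highest of any member in this comparison, but its interval was wide (-0.14 to 0.91, adjusted p = 0.611). The log2 fold change of Fdps was 0.21 without CON-pre replicate 2, the CON-pre library with the lowest Fdps level. That library also had the lowest relative depth of the 16 (0.706), and the part of depth in the Fdps values was not tested. The intervals for Hmgcs1 (-0.29 to 0.15), Idi1 (-0.21 to 0.28) and Insig2 (-0.21 to 0.15) included 0. The members' median log2 fold change was -0.07, beside -0.01 over all genes tested. The summed level of the Schwann cell markers (35.8 to 46.9 FPKM in CON-post) and that of the adipocyte markers (470 to 655 FPKM) overlapped with CON-pre, as did that of the muscle fibre markers. Of the 8 fibre markers, 7 had a lower estimate, 3 had an unadjusted p under 0.05 and none an adjusted p under 0.05, with Mylpf the lowest (-0.34, limma adjusted p = 0.287). Of the 9 adipocyte markers, 8 had a higher estimate in CON-post, and 1 of these, Pnpla2, passed the test (log2 fold change 0.46, limma adjusted p = 0.0157). Of 6 Schwann cell markers tested, 5 had a higher estimate and 3 had an unadjusted p under 0.05, with Prx at 0.53 (limma adjusted p = 0.0649). Among 5 endothelial markers Pecam1 had the highest estimate (0.32, adjusted p = 0.0660), and all 3 hepatocyte markers tested had a lower estimate, 1 with an unadjusted p under 0.05 (Alb, -2.37, adjusted p = 0.447). Beyond the fits with a marker score as a covariate, the part of these markers in the values of the members and of Dhcr7 was not tested.

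On the high-fat diet, no member separated the groups after exercise (0 of 8, against 6.81% of all genes tested in either direction). Fdft1 was 14.9, 13.8, 15.03 and 15.5 FPKM in HFD-post, with a mean 1.11 times that of HFD-pre and a log2 fold change of 0.14 (95% confidence interval -0.03 to 0.32, limma adjusted p = 0.540). Srebf2 was 1.69, 2.41, 1.70 and 2.05 FPKM in HFD-post, and its log2 fold change was -0.04 (95% confidence interval -0.26 to 0.18). Insig1 ranged from 2.70 to 5.25 FPKM in HFD-post, the widest range of any group for this gene, and its log2 fold change was 0.10 (95% confidence interval -0.27 to 0.47).
Between HFD-post and HFD-pre, 0 of 7 members had an adjusted p under 0.05 (limma, against 0.542% of all genes tested) and 0 an unadjusted p under 0.05 (against 11.7%). Between HFD-post and CON-post the counts were again 0 and 0, against 0.151 and 6.29% of all genes. In that comparison the lowest log2 fold change was that of Idi1, whose level was 1.78, 1.85, 2.16 and 2.15 FPKM in HFD-post and 2.60, 2.48, 2.00 and 2.30 FPKM in CON-post (-0.19, 95% confidence interval -0.44 to 0.05, adjusted p = 0.912). Insig2 had an interval of -0.23 to 0.13, and the members' median was -0.02. Between HFD-post and HFD-pre, 9 of 9 adipocyte markers had a higher estimate (median log2 fold change 0.41, 3 with an unadjusted p under 0.05 and none with an adjusted p under 0.05), and 8 of 8 muscle fibre markers a lower one (median -0.07). Of 5 endothelial markers Pecam1 was up-regulated (0.39, limma adjusted p = 0.0347) and the other 4 had lower estimates.

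Whether the response to exercise differed between the diets was tested as an interaction. Fdft1 had a log2 difference of 0.38 between the responses (standard error 0.12, 95% confidence interval 0.13 to 0.63, limma adjusted p = 1.00), because its fold change was -0.24 on the control diet and 0.14 on the high-fat diet. This was the 1 member of 7 with an unadjusted p under 0.05, against 3.16% of all genes, and no gene of the 11256 had an adjusted p under 0.05 (0%). The differences of Srebf2 (0.24, interval -0.08 to 0.55) and Insig1 (0.42, interval -0.11 to 0.94) had the same direction with intervals that included 0.
With the exercise states pooled, Fdft1 was the member with an unadjusted p under 0.05 for diet (log2 fold change -0.15, limma adjusted p = 0.359), which was 1 of 7 against 10.4% of all genes, and 0 of 7 had an adjusted p under 0.05 against 0.959%. The unadjusted p of Fdft1 was over 0.05 in 2 of 29 alternatives (up to 0.0772, with median-of-ratios scaling). With the diets pooled, Srebf2 was the member with an unadjusted p under 0.05 for exercise (log2 fold change -0.16, limma adjusted p = 0.269), which was 1 of 7 against 18.5%, and 0 of 7 had an adjusted p under 0.05 against 3.86%. The unadjusted p of Srebf2 was 0.0495, and was over 0.05 in 16 of 29 alternatives (up to 0.128, with the Schwann cell marker score as a covariate).
The lowest CON-pre library was set beside the libraries of the other groups. For Fdft1, 12 of the 12 libraries of the other groups lay below the lowest CON-pre library, for Srebf2 11 of 12 and for Insig1 10 of 12, but for Insig2 4 of 12, for Hmgcs1 5 of 12, for Idi1 5 of 12, for Sqle 3 of 12 and for Fdps 1 of 12. Of all genes tested, 0.346% had 12 of 12 below, 1.2% at least 11 and 2.56% at least 10. The grouping of these 12 libraries was made after their values were seen and was not tested.

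Ratios of the levels of related genes were also compared between the groups. The ratio of Insig2 to Insig1 was 4.43 ± 0.601 in CON-pre, 5.62 ± 0.922 in HFD-pre, 5.58 ± 1.02 in CON-post and 5.37 ± 1.39 in HFD-post (SD, n = 4 each), and the groups overlapped. The ratio of Fdft1 to Hmgcs1 was 2.11 ± 0.203 in CON-pre, 1.57 ± 0.257 in HFD-pre, 1.88 ± 0.321 in CON-post and 1.90 ± 0.223 in HFD-post, and these groups also overlapped.
Srebf1, the paralogue of Srebf2 best known for fatty acid synthesis, was the more abundant, and Srebf2 was 0.238 ± 0.0348 times as high (SD, n = 16). Srebf1 was 10.4 ± 1.01 FPKM in CON-pre, 8.04 ± 0.825 in HFD-pre, 7.97 ± 1.16 in CON-post and 9.74 ± 1.88 in HFD-post. Its log2 fold change was -0.35 in HFD-pre (limma adjusted p = 0.455) and -0.36 in CON-post (adjusted p = 0.253), beside -0.26 and -0.27 for Srebf2.

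The other enzymes of cholesterol synthesis were compared with the members. All 16 listed genes were tested. In HFD-pre 14 were lower and 2 higher than in CON-pre, where 60.4% of all genes tested were lower. The median of their log2 fold changes was -0.12 (-0.09 with 13 lower under median-of-ratios scaling, and -0.06 with 12 lower under quantile normalization). None had an adjusted p under 0.05 and 2 of 16 had an unadjusted p under 0.05, against 8.25% of all genes. Mvd, which decarboxylates mevalonate diphosphate, had the highest log2 fold change (0.26, limma adjusted p = 0.641). In CON-post 12 of 16 were lower, against 51.7% of all genes tested. Of the 16, 1 had an adjusted p under 0.05, against 1.11% of all genes, and 3 had an unadjusted p under 0.05, against 11.1%. Dhcr7, which makes cholesterol from its direct precursor, was down-regulated from 2.07 ± 0.201 to 1.24 ± 0.211 FPKM (SD, n = 4). Its log2 fold change was -0.57 ± 0.11 (standard error; adjusted p = 0.0108 in limma). The adjusted p was 0.0562 without CON-pre replicate 1, 0.0959 when these groups were fitted alone and 0.131 with a Schwann cell marker score as a covariate. Mvd was again the highest (0.25, adjusted p = 0.504). In HFD-post 11 of 16 were higher than in HFD-pre (8 of 16 with quantile normalization), where 40.7% of all genes tested were lower, and Msmo1, a sterol demethylation enzyme, was the lowest (-0.35, adjusted p = 0.335).
Fdft1 and Dhcr7 had estimates below 0 in both HFD-pre and CON-post against the shared CON-pre libraries. That of Dhcr7 in CON-post passed the test. Estimates below 0 were common among the 16 enzymes, with 14 in HFD-pre and 12 in CON-post, and Srebf2, Insig1 and Insig2 also had them in both.

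**Figure D3:**
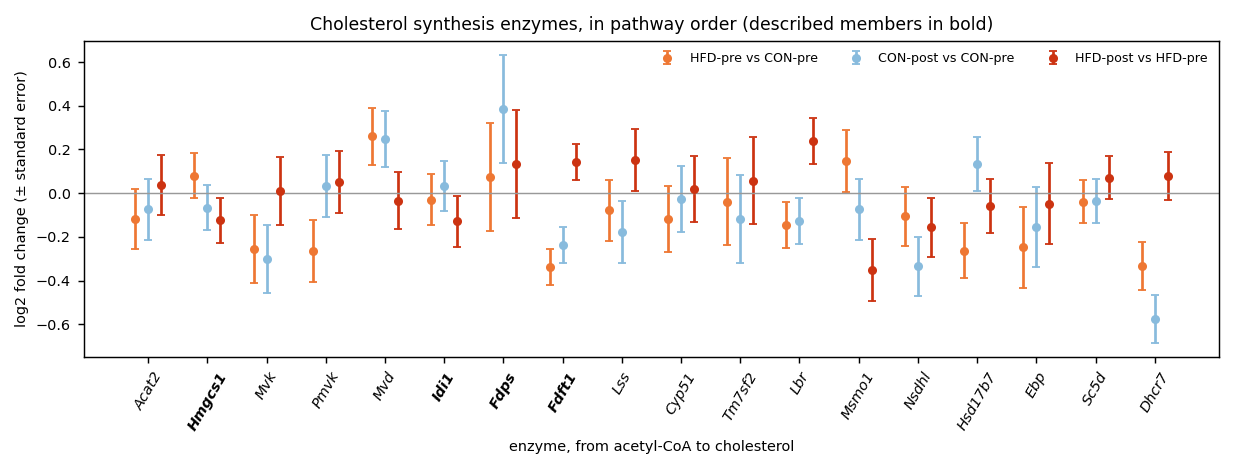
Log2 fold change (vertical axis, point with its standard error) of enzymes in order from acetyl-CoA to cholesterol in HFD-pre vs CON-pre, CON-post vs CON-pre and HFD-post vs HFD-pre; members are in bold, and Sqle, which was not tested, is not shown. The lowest point is Dhcr7 in CON-post (-0.57), the enzyme here that passed the adjusted test.

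Genes around the SREBP pathway were listed in the same way. Of 12 other genes of sterol sensing and SREBP processing, 9 were lower in HFD-pre (7 with median-of-ratios or quantile scaling) and 10 in CON-post. Of all genes tested, 60.4% were lower in HFD-pre and 51.7% in CON-post, and these shares also apply to the lists below. None had an adjusted p under 0.05, and 1 and 2 of the 12 had an unadjusted p under 0.05, against 8.25 and 11.1% of all genes. Srebf1 was the lowest in both comparisons, and Mbtps1, a protease that cuts SREBP, was the highest in HFD-pre (0.14, adjusted p = 0.754).
Of 12 genes of sterol uptake, traffic and storage, 10 were tested. In CON-post 7 were higher, and Npc1, the lysosomal exporter of cholesterol, was up-regulated from 18.6 ± 2.61 to 28.2 ± 2.10 FPKM (SD, n = 4), by a log2 fold change of 0.59 (limma adjusted p = 0.0108), while Scarb1, the HDL receptor, had the lowest estimate (-0.21, adjusted p = 0.749). With the diets pooled, Npc1 rose by a log2 fold change of 0.47 after exercise (adjusted p = 0.00244). On the high-fat diet alone its log2 fold change was 0.35 and did not pass the test (limma adjusted p = 0.223). In HFD-pre 8 of the 10 were lower (6 with median-of-ratios or quantile scaling) and none passed the adjusted test, with Vldlr the lowest (-0.36, adjusted p = 0.249) and Nceh1 the highest (0.27, adjusted p = 0.693).
Of 9 genes of LXR signalling and sterol efflux, 7 were tested, and 7 of 7 were higher in CON-post and in HFD-post than before exercise on the same diet, with medians of 0.15 and 0.18 (6 of 7 in CON-post with upper-quartile scaling, and a median of 0.09 in HFD-post with quantile normalization). Of all genes tested, 51.7% were lower in CON-post and 40.7% in HFD-post. None passed the adjusted test in either comparison. The adipocyte markers also had mostly higher estimates in both (8 of 9 and 9 of 9), and their part in the values of this list was not tested. The highest were Apoe, the apolipoprotein E gene, in CON-post (0.24, adjusted p = 0.659) and Nr1h3, which encodes LXR alpha, in HFD-post (0.35, adjusted p = 0.236), and Lpcat3 was the lowest in both (0.04 and 0.08, adjusted p = 0.946 and 0.849). Mylip, the ubiquitin ligase that removes the LDL receptor, was up-regulated with the diets pooled (log2 fold change 0.26, adjusted p = 0.0493), but not in 21 of 29 alternatives (adjusted p up to 0.254).
In the branch from mevalonate to prenyl groups, all 12 genes were tested and none had an adjusted p under 0.05. In HFD-pre 8 of 12 were lower and in CON-post 8 of 12 higher (5 of 12 with upper-quartile scaling), with Pdss1, a polyprenyl synthase of ubiquinone synthesis, the highest in both (0.23 and 0.45, adjusted p = 0.866 and 0.474). The lowest were Pdss2 in HFD-pre (-0.22, adjusted p = 0.523) and Icmt, a methyltransferase of prenylated proteins, in CON-post (-0.12, adjusted p = 0.706).

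The list of genes for acetyl-CoA, acetoacetyl-CoA and HMG-CoA, which surround the step of Hmgcs1, held several DEG. Aacs, which activates acetoacetate in the cytosol, was 1.59 ± 0.180 FPKM in CON-pre, 0.666 ± 0.170 in HFD-pre, 2.79 ± 0.484 in CON-post and 1.48 ± 0.367 in HFD-post (SD, n = 4 each). It was down-regulated in HFD-pre (log2 fold change -0.85, limma adjusted p = 0.0138) and up-regulated after exercise on either diet (0.65, adjusted p = 0.0397, in CON and 0.76, adjusted p = 0.0258, in HFD). Its adjusted p was over 0.05 in 4 of 30 alternatives for the diet (up to 0.0609, without CON-pre replicate 2), in 18 of 30 for exercise on CON (up to 0.316, with the Schwann cell covariate) and in 11 of 30 for exercise on HFD (up to 0.188, with an adipocyte covariate). With the groups pooled, Aacs was down-regulated by the diet (-0.79, adjusted p = 0.000590) and up-regulated by exercise (0.70, adjusted p = 0.000768), each in all of 29 alternatives. Acly had the lowest estimate in CON-post (-0.29, adjusted p = 0.570). With the exercise states pooled, Acly, the cytosolic source of acetyl-CoA, was down-regulated by the diet (-0.57, adjusted p = 0.0320, but over 0.05 in 14 of 29 alternatives and 0.0772 without HFD-pre replicate 2) and Acat1, the mitochondrial acetoacetyl-CoA thiolase, was up-regulated (0.30, adjusted p = 0.00739).
Of 12 genes of fatty acid synthesis, 11 were tested. In HFD-pre 6 were lower and 5 higher, and Fasn (log2 fold change -1.71, adjusted p = 0.00440) and Acaca (-0.67, adjusted p = 0.00837), the enzymes that make palmitate and malonyl-CoA, were down-regulated. The highest was Fads2, a fatty acid desaturase (0.15, adjusted p = 0.936). In CON-post 10 of 11 had a lower estimate (median log2 fold change -0.43, beside -0.41 in HFD-pre against the same CON-pre libraries), none had an adjusted p under 0.05 and 7 had an unadjusted p under 0.05, against 11.1% of all genes. The lowest there was Scd2, a stearoyl-CoA desaturase (-0.69, adjusted p = 0.106), and the highest Elovl5, a fatty acid elongase (0.05, adjusted p = 0.916). Both Fasn (-1.37, adjusted p = 0.000436) and Acaca (-0.52, adjusted p = 0.00135) were also down-regulated by the diet with the exercise states pooled.

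Variation between mice of the same group gives a view of the members that the group differences do not use. With the group mean removed from log2(FPKM + 0.5), 28 pairs of the 8 members were correlated over the 16 libraries, and permutation tests of 100000 resamples within groups were adjusted over the 28 pairs. Srebf2 and Insig1 varied together, with Pearson's r = 0.867 (permutation p = 0.000470, adjusted p = 0.0132), Spearman's rho = 0.791 (permutation p = 0.00119, adjusted p = 0.0333) and r = 0.829 without the 2 libraries farthest from the median of Srebf2. In HFD-post, for example, replicate 2 had the highest level of both genes (2.41 FPKM for Srebf2 and 5.25 for Insig1). The r was 0.802 (adjusted p = 0.0759) with median-of-ratios scaling and 0.701 (adjusted p = 0.420) with quantile normalization, so its adjusted p depended on how the libraries were scaled.
This was the 1 pair of 28 with an adjusted p under 0.05, and 3 pairs had an unadjusted p under 0.05. The next highest r was that of Hmgcs1 with Sqle (r = 0.655, permutation p = 0.0129, adjusted p = 0.180; rho = 0.626, adjusted p = 0.316; r = 0.484 without the 2 farthest libraries, and 0.175 with quantile normalization). Across the 10 pairs of enzymes r ranged from -0.45 to 0.66 with a median of 0.13, and 6 were positive. Hmgcs1 and Fdft1, the more abundant enzymes, gave r = -0.11 (adjusted p = 0.871). The pair of paralogues Insig1 and Insig2 gave r = 0.487 (adjusted p = 0.468), which was 0.199 with median-of-ratios scaling and 0.244 with quantile normalization.

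**Figure D4:**
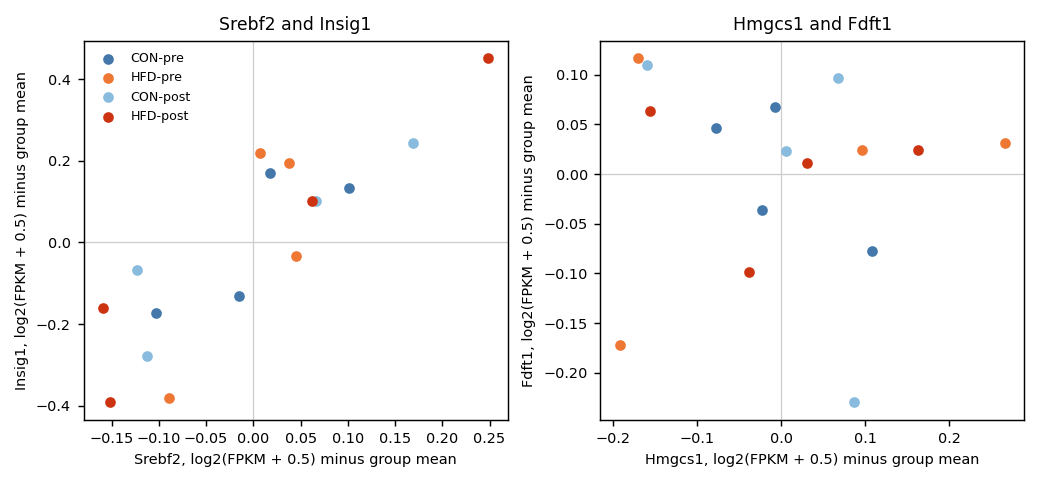
Log2(FPKM + 0.5) minus the group mean in the 16 libraries, coloured by group, for Srebf2 (horizontal) against Insig1 (vertical) on the left and for Hmgcs1 against Fdft1 on the right. The points rise together on the left (r = 0.867) and show no such order on the right (r = -0.11).

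For each member the 5 genes with the most similar pattern were those with the highest Pearson r of the same group-centred values over the 16 libraries, among all genes tested. None of these genes was in a list of the pathway. The highest for the enzymes were BC030336 for Hmgcs1 (r = 0.888), Setbp1 for Idi1 (0.790), Polrmt for Fdps (0.926), Msto1 for Fdft1 (0.831) and Rchy1 for Sqle (0.866). The highest for the sensing genes were Edem1 for Srebf2 (0.931), Rara for Insig1 (0.919) and Tm9sf2 for Insig2 (0.942). Rgma was among the 5 of both Hmgcs1 (0.839) and Sqle (0.834). These are the highest of many correlations over libraries that share depth and scaling, and they are given as a description.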

How the data were processed

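Quadriceps mRNA was sequenced from 16 libraries in 4 groups of 4. According to the methods and labels, the authors prepared stranded libraries, aligned reads with TopHat to mm9 and estimated expression with Cufflinks, and deposited the estimates as FPKM, which are scaled for length and library size. FPKM carries no read count, so no count model was used and the depth behind a value is unknown except relative to other libraries. The comparisons that the authors made are not used here, and 0 columns of sample values were left out.

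Of 24487 entries, 27 with names turned into dates (0.0771% of FPKM) were left out, and entries of 260 repeated symbols were summed, leaving 23970 symbols. Genes averaging 0.5 FPKM or more were tested with limma 3.58.1 (R 4.3.3) on log2(FPKM + 0.5). The mean-variance trend was used in a single fit of all 4 groups without covariates, in 7 comparisons. Benjamini-Hochberg adjustment was over all 11256 genes, with a threshold of 0.05. A log2 fold change on this scale understates the change of low genes. Each member was also compared by an exact two-sided permutation test. The code was tested on simulated data. Other steps used scipy 1.17.1, pandas 2.3.3 and numpy 2.4.6 in Python 3.11.15, and matplotlib 3.10.9 drew the figures.

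The members, the 7 pathway lists (cholesterol synthesis, sterol sensing, sterol uptake, LXR and efflux, prenyl branch, acetoacetyl-CoA and HMG-CoA, and fatty acid synthesis) and the 6 marker lists were chosen with earlier results of these data known. Genes outside the members were named if they passed the test or had the largest rise or fall of a list in a comparison described, and Srebf1 was named whatever its values. The values of some genes that this rule names are not reported here. The alternatives were 2 other pseudocounts, no filter or a filter at 1 FPKM, 3 other scalings, no trend, array weights, a replicate block, adipocyte or Schwann cell covariates, fits of the 2 groups alone, repeated symbols left out, other thresholds, and each of 16 libraries left out in turn. The deposited table holds no coordinates, and promoter sequences are from RefSeq GRCm38.p6, a later build than the mm9 named in the methods, and were used for their letters only. The build behind the values is uncertain, because gene loci printed in the supplement overlapped the GRCm38.p6 gene in 692 of 692 cases and the mm9 gene in 114.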

Additional observations from a re-analysis of the deposited data

How the results depend on the processing

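No member had an adjusted p under 0.05 in any of 1449 alternative fits, and the lowest adjusted p was 0.0543, for Fdft1 in HFD-pre without CON-post replicate 2. At an unadjusted p under 0.05, the members passing were 3 in HFD-pre, 2 in CON-post, 1 in the interaction, 1 for diet pooled and 1 for exercise pooled. Fdft1 in HFD-pre had a log2 fold change of -0.38 to -0.28, Srebf2 of -0.30 to -0.21 and Insig1 of -0.47 to -0.27. Of 49 member values, 33 kept their direction in every alternative and 16 did not. The reversed values were 0.00676 (median-of-ratios) and 0.026 (quantile) for Idi1 in HFD-pre. For Insig2 in HFD-post against HFD-pre they were -0.0083 (upper-quartile), -0.00980 (median-of-ratios), -0.036 (quantile) and -0.049 (adipocyte covariate), and for Insig2 with exercise pooled -0.038, -0.016, -0.050 and -0.054 in the same order and -0.027 with the Schwann cell covariate. With the adipocyte covariate Insig1 was -0.00133 in HFD-post against HFD-pre and -0.048 in HFD-post against CON-post. The cause was not tested. With single libraries left out, the log2 fold changes that crossed 0 ranged as follows. In HFD-pre they were -0.0082 to 0.14 for Hmgcs1, -0.11 to 0.064 for Idi1 and -0.095 to 0.34 for Fdps. In CON-post they were -0.0083 to 0.095 for Idi1 and -0.074 to 0.017 for Insig2. In HFD-post against HFD-pre they were -0.13 to 0.27 for Fdps, -0.12 to 0.014 for Srebf2, -0.047 to 0.23 for Insig1 and -0.011 to 0.10 for Insig2. In HFD-post against CON-post they were -0.032 to 0.075 for Hmgcs1, -0.035 to 0.078 for Fdft1, -0.11 to 0.032 for Srebf2 and -0.13 to 0.15 for Insig1. In the interaction they were -0.12 to 0.031 for Hmgcs1, for diet pooled -0.14 to 0.082 for Fdps, and for exercise pooled -0.022 to 0.036 for Insig2. The number of correlated pairs was 0 with median-of-ratios scaling and 0 with quantile normalization.

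The labels number the replicates 1 to 4 in each group, but same-numbered libraries deviated together weakly or not at all (r from -0.22 to 0.21 between groups), so the numbers were not taken as pairs. Some same-numbered libraries of the same exercise state matched better than other-numbered ones, as replicate 1 of CON-pre and HFD-pre (r = 0.21) and replicate 2 of CON-post and HFD-post (r = 0.20). Replicate 3 of CON-pre and HFD-pre gave r = -0.22. With the replicate block 0 members had an adjusted p under 0.05 in each of the 7 comparisons, and Fdft1 in HFD-pre had an adjusted p of 0.0925. FPKM hold no read counts, so the counting error of low genes such as Sqle is unknown.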
